A study of Mus musculus with 9 samples.

Results

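The transforming growth factor beta (TGF-beta) and bone morphogenetic protein (BMP) pathway was followed through 42 genes of bEnd.3 cells under 3 kinds of flow. The 42 genes were a list of symbols naming ligands, receptors, SMAD proteins, ID target genes, ligand binders and regulators, and all 42 had a row in the deposited table of 31232 genes. They were divided into a TGF-beta and activin arm of 17 genes, a BMP arm of 17 genes and 8 genes used by both.

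Ligands of this family bind pairs of type I and type II serine and threonine kinase receptors, which phosphorylate receptor SMADs. TGF-beta and activin receptors act through SMAD2 and SMAD3, BMP receptors through SMAD1 and SMAD5, and both kinds of SMAD enter the nucleus with SMAD4. In endothelium the type I receptor ALK1 (gene Acvrl1) and its co-receptor endoglin (Eng) carry signals of circulating BMPs, which induce the ID genes, and TGF-beta signalling is known as an inducer of the change of endothelial cells toward a mesenchymal state.

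All 3 groups are 1 cell line, bEnd.3, which derives from mouse brain endothelium and carries the middle T oncogene of polyoma virus. The cells grew on glass coverslips in a parallel-plate flow chamber. Laminar flow was set at 10 dyne/cm2 for PSS and at 20 dyne/cm2 for HSS, and Vortex cells had vortex flow at 0.5 to 2 dyne/cm2, with 3 libraries of polyadenylated RNA in each group. The submitters set these as models of normal brain vessels, of a bifurcation where an aneurysm starts, and of the enlarged aneurysm. The extraction text speaks of mixed RNA, and no label says that the replicates were separate cultures, so p-values measure only the spread between these libraries, which may be technical.

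Libraries held 17407217 to 22965802 counts. Across genes, which are not independent replicates, the Pearson correlation of log2 CPM (read counts scaled to the size of the library) was 0.992 to 0.993 within HSS and 0.977 to 0.992 within PSS. Within Vortex it was 0.852 for replicates 1 and 2, 0.916 for 2 and 3 and 0.962 for 1 and 3. Of the 12 endothelial markers, all 12 were detected, and their summed level was 2514 to 3213 CPM in PSS, 706 to 720 in HSS, and 1244, 7138 and 1639 in Vortex replicates 1, 2 and 3. The junction gene Pecam1 had 30567 counts in Vortex replicate 2 and 23 to 1116 in the other libraries, and Cldn5, the claudin of brain endothelium, had 2, 0 and 0 counts in HSS. Flt1, a VEGF receptor gene of the same list, went the other way, at 178 to 258 CPM in PSS, 329 to 338 in HSS and 447 to 485 in Vortex. Of the 12 markers, 8 were lower and 0 higher in HSS than in PSS at an adjusted p under 0.05. Summed pericyte and smooth muscle markers were at 89.2 to 112 CPM in PSS, 131 to 138 in HSS and 64.1 to 207 in Vortex. All 8 markers were detected, but Tagln at 0 to 5 counts and Cnn1 at 1 to 8. The highest were Des and Pdgfrb. Des was at 64.7 to 91.9 CPM in PSS, 92.0 to 99.7 in HSS and 133, 57.7 and 158 in Vortex. Pdgfrb was at 17.0 to 22.2, 33.6 to 36.7 and 21.9, 4.57 and 47.2 CPM. All 6 fibroblast markers were detected, with sums of 272 to 341, 318 to 332 and 56.4 to 633 CPM. Of these, Pdgfra was at 69.4 to 76.4 CPM in PSS and 467, 21.4 and 332 in Vortex replicates 1, 2 and 3. Dcn was at 3.55 to 4.78 CPM in PSS and 40.9, 0.381 and 44.9 in Vortex. Col1a1 was lower in every Vortex library, at 189 to 263 CPM in PSS and 124, 34.3 and 165 in Vortex. Col1a2, Lum and Postn had 0 to 28 counts in any library, with lower means in Vortex than in PSS. Of 6 macrophage and leukocyte markers, 5 were in the table, with sums of 6.26 to 6.63, 21.6 to 24.6 and 21.2 to 50.7 CPM. Csf1r was at 1.36 to 2.79 CPM in PSS, 15.8 to 18.9 in HSS and 8.64 to 17.1 in Vortex. Cd68 was at 3.69 to 4.96 CPM in PSS, 5.26 to 5.71 in HSS and 33.2, 7.96 and 36.6 in Vortex. The pan-leukocyte gene Ptprc was at 0 to 1 count, Adgre1 at 0 to 7 and Itgam at 0 to 3. The 4 epithelial markers summed to 6.77 to 7.06, 3.92 to 4.90 and 5.19 to 19.7 CPM, with Epcam at 0 to 2 counts and Cdh1 at 0 to 3. Krt18 was at 3.84 to 5.31 CPM in PSS, 2.07 to 2.83 in HSS and 8.89, 3.14 and 17.1 in Vortex. Krt8 was at 1.75 to 3.02 CPM over all libraries. In RNA of whole cultures, fewer cells of a type and less RNA per cell cannot be told apart. The part that these marker differences play in the results below was not tested.

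Of the 42 genes, 40 had enough counts to be tested. Bmp2, a BMP ligand, had 0 to 2 counts in PSS and HSS libraries and 0, 15 and 0 in Vortex, and Grem1, a secreted BMP antagonist, had 0 to 6 counts in any library. A gene was called at an adjusted p under 0.05 in edgeR's quasi-likelihood fit of all 9 libraries, with p-values adjusted by the Benjamini-Hochberg method over 15774 genes. Every adjusted p below comes from that test, run anew where a library is said to be left out. Without Vortex replicate 2, p-values were adjusted over 16233 genes. Vortex replicate 2 stood apart, and its spread enters every comparison. Each call of a member was therefore also checked in a fit without it, in which Vortex has 2 libraries. The values of named pathway and target genes outside the 42 are from all 9 libraries only. HSS and Vortex are compared with the same PSS libraries, so the 2 sets of differences from PSS are not independent.

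Between HSS and PSS, 5 of 40 members were called, 3 higher and 2 lower in HSS, where 7.87% of all tested genes were called (4.18% higher and 3.7% lower). Bmper and Ltbp1, which encode secreted or matrix binders of these ligands, rose, as did Ltbp2, a relative of Ltbp1. The ligand gene Tgfb2 and the pseudoreceptor gene Bambi fell. The HSS libraries were all above the PSS libraries for 12 members and all below for 19, against 29.9% and 26.3% of all tested genes, and 14 members had an unadjusted p under 0.05, as did 23.4% of genes. Without Vortex replicate 2 the count was 23 of 40, 9 higher and 14 lower, where 29.1% of genes were called (15.4% higher and 13.7% lower). It was 2 without PSS replicate 1 or 3 or any 1 HSS library, 3 without PSS replicate 2 and 9 without Vortex replicate 1. The count over all genes also moved, from 285 to 4730 with 1 library left out.

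Between Vortex and PSS, 8 of 40 members were called, 4 higher and 4 lower in Vortex, where 13.4% of all tested genes were called (8.33% higher and 5.03% lower). Smurf1, Fst, Ltbp1 and Ltbp2 rose, and Tgfb2, Tgfb3, Bmp4 and Skil fell. All Vortex libraries lay above PSS for 6 members and below for 7, against 15.6% and 14.4% of genes, and 12 members had an unadjusted p under 0.05, as did 29.8% of genes. Without Vortex replicate 2 the count was 27 of 40, 10 higher and 17 lower, where 36.3% of genes were called (19.7% higher and 16.6% lower). It was 3, 4 and 4 without PSS replicate 1, 2 and 3. Over all genes, 519 to 5888 were called with 1 library left out. A fit of only the PSS and Vortex libraries called 0 members and 74 of all genes by edgeR, with 12 members at an unadjusted p under 0.05. The DESeq2 Wald test on all 9 libraries called 12 members and 3489 of all genes.

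Between Vortex and HSS, 8 of 40 members were called, 6 higher and 2 lower in Vortex, where 7.04% of all tested genes were called (4.37% higher and 2.67% lower). The ligand genes Tgfb1, Bmp6 and Inhba were higher in Vortex, as were Acvr2b, Smad1 and Smurf1, and Bmp4 and Bmper were lower. Vortex libraries were all above HSS for 13 members and all below for 9, against 19.5% and 16.9% of genes, and 15 members had an unadjusted p under 0.05, as did 26.9% of genes. Without Vortex replicate 2 the count was 17 of 40, 9 higher and 8 lower, where 23.9% of genes were called (13.9% higher and 10% lower). It was 1 without any 1 HSS library, 3 without PSS replicate 1 or 2, and 15 without Vortex replicate 1. With 1 library left out, 25 to 3887 of all genes were called.

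**Figure D1:**
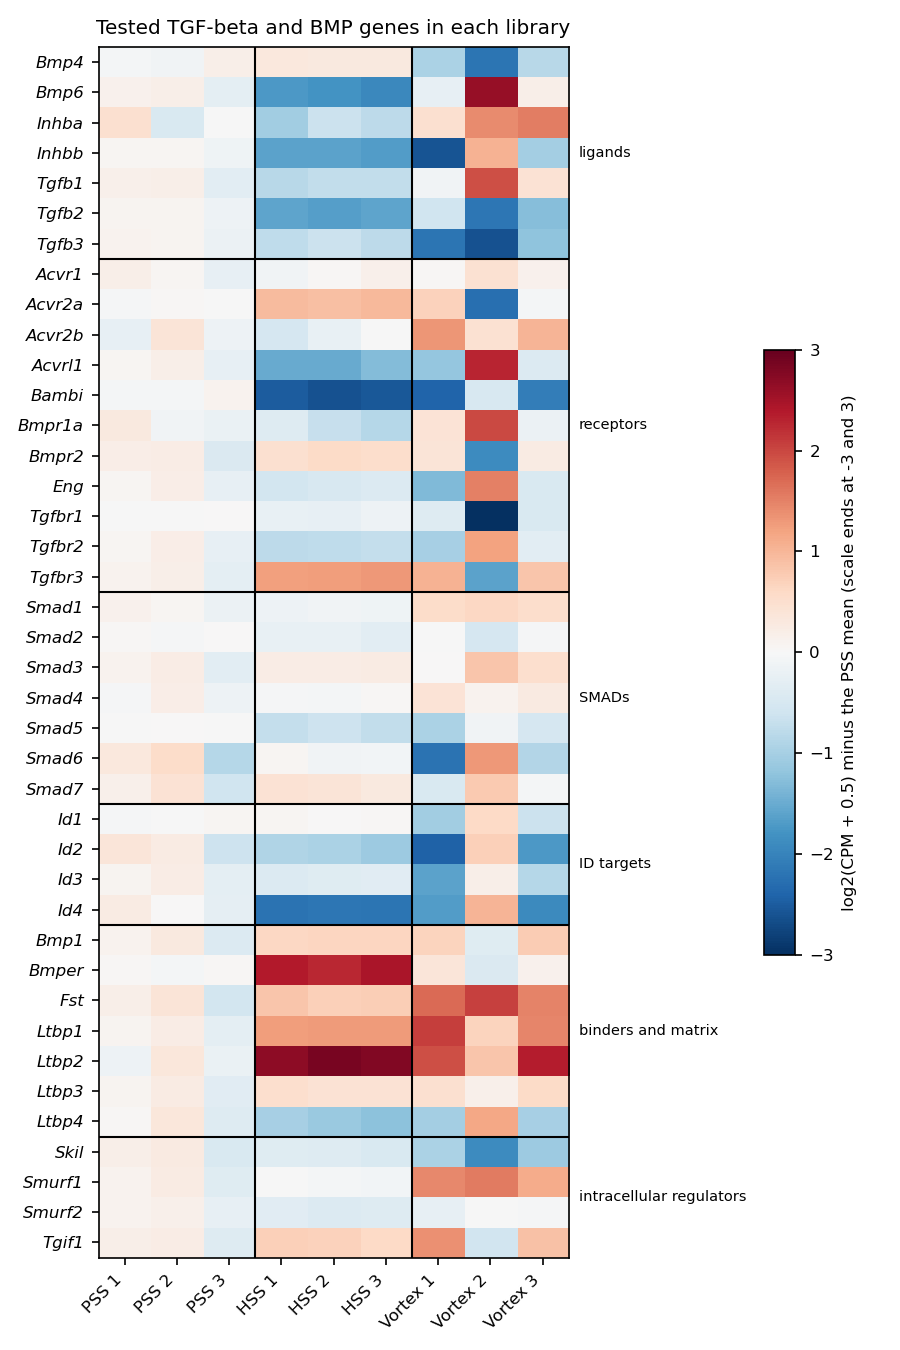
Each cell is log2(CPM + 0.5) of 1 tested gene in 1 library minus the mean of the 3 PSS libraries, with genes in rows by role and libraries in columns. The HSS columns resemble each other, and Vortex replicate 2 departs from Vortex replicates 1 and 3 in many rows, as in Bmp6, Acvrl1, Tgfbr1 and the 4 ID genes.

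Sequences upstream of 5 members are given because these genes show the main patterns by flow and have 1 entry each among the RefSeq promoters of build GRCm38.p6. Tgfb2 was lower in HSS and Vortex than in PSS, Ltbp2 higher in both, Bmper higher in HSS, Smurf1 higher in Vortex, and Id3 is a target gene of BMP signalling. Each sequence is the 250 bases before the start of transcription, in the direction of transcription, at chr1:186705990-186706239 (minus strand) for Tgfb2, chr12:84876492-84876741 (minus strand) for Ltbp2, chr9:23222826-23223075 (plus strand) for Bmper, chr5:144965831-144966080 (minus strand) for Smurf1 and chr4:136143572-136143821 (plus strand) for Id3. Capitals mark the core of the SMAD binding element, CAGAC or its reverse complement GTCTG.
Tgfb2: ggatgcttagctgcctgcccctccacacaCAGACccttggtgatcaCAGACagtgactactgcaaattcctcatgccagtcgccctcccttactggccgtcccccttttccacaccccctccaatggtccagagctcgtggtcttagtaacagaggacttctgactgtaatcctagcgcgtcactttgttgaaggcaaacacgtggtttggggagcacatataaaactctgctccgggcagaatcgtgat
Ltbp2: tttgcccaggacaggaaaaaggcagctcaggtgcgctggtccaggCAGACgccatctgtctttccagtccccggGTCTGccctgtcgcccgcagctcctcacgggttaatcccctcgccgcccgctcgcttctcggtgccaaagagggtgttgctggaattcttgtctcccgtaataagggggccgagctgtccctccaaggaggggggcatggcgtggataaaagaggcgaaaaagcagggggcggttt
Bmper: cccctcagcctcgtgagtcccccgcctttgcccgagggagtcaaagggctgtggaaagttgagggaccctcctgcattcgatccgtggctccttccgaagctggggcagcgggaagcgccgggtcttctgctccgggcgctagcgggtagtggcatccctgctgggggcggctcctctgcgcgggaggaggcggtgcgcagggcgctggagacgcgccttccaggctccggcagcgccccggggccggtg
Smurf1: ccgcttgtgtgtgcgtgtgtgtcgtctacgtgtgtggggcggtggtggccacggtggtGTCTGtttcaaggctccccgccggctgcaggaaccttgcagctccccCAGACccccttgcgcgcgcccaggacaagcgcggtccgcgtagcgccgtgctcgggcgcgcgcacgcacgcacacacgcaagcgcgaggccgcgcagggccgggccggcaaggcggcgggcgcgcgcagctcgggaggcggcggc
Id3: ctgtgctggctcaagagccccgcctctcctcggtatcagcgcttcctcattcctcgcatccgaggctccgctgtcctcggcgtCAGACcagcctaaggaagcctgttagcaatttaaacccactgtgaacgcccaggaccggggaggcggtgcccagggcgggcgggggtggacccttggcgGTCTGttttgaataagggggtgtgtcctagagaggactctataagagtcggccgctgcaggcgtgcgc
The element occurred 2 times in the windows of Tgfb2, Ltbp2, Smurf1 and Id3 and 0 times in that of Bmper. It occurred in 42.2% of all 32851 promoter windows of this length and in 19 of the 40 windows that matched 30 of the 42 members. The palindrome GGCGCC, a GC-rich motif of BMP response elements, was in none of the 5 windows, in 9.59% of all windows and in 10 of the 40. A match describes the letters and not a bound site.

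Among the ligands, the 3 TGF-beta genes and Bmp4 were at similar levels per gene length in PSS. FPKM, which scales counts by gene length, was 23.2 ± 2.98 for Tgfb3, 19.5 ± 2.23 for Tgfb2, 17.4 ± 3.63 for Tgfb1 and 14.7 ± 1.21 for Bmp4 (mean ± SD, n = 3). The activin subunit gene Inhbb was at 10.5 ± 1.00 FPKM and Bmp6 at 6.55 ± 1.28, while the activin A subunit gene Inhba was at 0.126 ± 0.0692. From Tgfb3 down to Bmp4, the SDs of neighbours in that order overlap.

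Tgfb2 was the only ligand gene called between HSS and PSS. Its CPM was 113, 114 and 96.8 in PSS replicates 1, 2 and 3, 35.4, 34.0 and 35.8 in HSS, and 71.3, 23.7 and 44.1 in Vortex. All HSS and Vortex libraries lay below all PSS libraries. Its log2 fold change from PSS was -1.62 ± 0.34 (SE) in HSS (adjusted p = 0.0228) and -1.22 ± 0.34 in Vortex (adjusted p = 0.0443). The HSS call ended without each of the PSS and HSS libraries (adjusted p 0.0681 to 0.106), and the Vortex call ended without each of the PSS and HSS libraries or Vortex replicate 3 (0.0813 to 0.133). Both passed without Vortex replicate 2 (-1.62 ± 0.17 and -0.91 ± 0.19, adjusted p = 8.84e-05 and 0.00514).

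Tgfb3 fell in Vortex. It was at 80.1, 78.8 and 66.0 CPM in PSS, 43.8, 47.3 and 43.0 in HSS, and 16.1, 11.9 and 31.8 in Vortex. The 3 groups did not overlap, with Vortex lowest and HSS between. Tgfb3 changed from PSS by -1.91 ± 0.33 in Vortex (adjusted p = 0.00885), a call that remained without each of the 9 libraries (adjusted p up to 0.0463). In HSS it was -0.74 ± 0.32 (adjusted p = 0.205), and without Vortex replicate 2 -0.75 ± 0.21 (adjusted p = 0.0252).

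Tgfb1, the TGF-beta ligand with the widest expression in the body, was higher in Vortex than in HSS. It was at 92.2, 92.9 and 65.7 CPM in PSS, 46.3, 48.9 and 49.0 in HSS, and 77.3, 315 and 112 in Vortex. All HSS libraries were below all others, and Vortex replicate 2 was above all others. From HSS to Vortex the log2 fold change was 1.81 ± 0.46 (adjusted p = 0.0484). It was 0.98 ± 0.19 without Vortex replicate 2 (adjusted p = 0.00666). The call ended without each of the PSS and HSS libraries or Vortex replicate 3 (adjusted p 0.0526 to 0.186).

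Bmp4 was lower in Vortex than in both laminar groups. Its CPM was 30.3, 29.1 and 35.7 in PSS, 39.7, 38.8 and 38.6 in HSS, and 16.1, 6.57 and 17.6 in Vortex, with no overlap between groups. Bmp4 fell by a log2 fold change of -1.24 ± 0.33 from PSS (adjusted p = 0.0384) and -1.54 ± 0.33 from HSS (adjusted p = 0.0296). They were, without Vortex replicate 2, -0.91 ± 0.15 and -1.21 ± 0.15 (adjusted p = 0.00123 and 0.000723). The call against PSS ended without each of the PSS and HSS libraries (0.0747 to 0.116), and that against HSS without PSS replicate 1 or 2 or any 1 HSS library (0.0565 to 0.129).

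Bmp6 encodes a BMP ligand made by endothelium of several organs. It was at 26.4, 27.1 and 19.5 CPM in PSS, 6.93, 6.62 and 5.89 in HSS, and 20.1, 151 and 27.4 in Vortex. All HSS libraries were the lowest, and 1 Vortex library was far above the other two. From HSS to Vortex the log2 fold change was 3.35 ± 0.71 (adjusted p = 0.0286) and 1.87 ± 0.20 without Vortex replicate 2 (adjusted p = 0.000407). The call ended without PSS replicate 1 or 2 or any 1 HSS library (0.0547 to 0.143). The difference of HSS from PSS was -1.91 ± 0.67 (adjusted p = 0.123), and -1.91 ± 0.19 without Vortex replicate 2 (5.97e-05).

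The activin genes were the remaining ligands. Inhba was at 8 to 24 counts in PSS libraries, 2, 5 and 4 in HSS, and 19, 58 and 62 in Vortex, and the Vortex libraries were all above the HSS ones. Its log2 fold change of Vortex from HSS was 3.57 ± 0.63 (adjusted p = 0.0166), and 3.45 ± 0.65 without Vortex replicate 2 (0.00542). That call ended without HSS replicate 1, 2 or 3 (0.107, 0.0878 and 0.104). Inhbb was at 39.3 to 44.5 CPM in PSS, 13.1 to 13.7 in HSS, and 6.69, 88.5 and 20.8 in Vortex. It passed no test with all libraries, and without Vortex replicate 2 it was lower in HSS and in Vortex than in PSS (-1.67 ± 0.31 and -1.63 ± 0.36, adjusted p = 0.00307 and 0.00658). In that fit 6 of the 7 tested ligand genes were lower in HSS than in PSS and 0 higher, and 4 were lower in Vortex and 0 higher, where 13.7% and 16.6% of all genes were called lower and 15.4% and 19.7% higher.

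**Figure D2:**
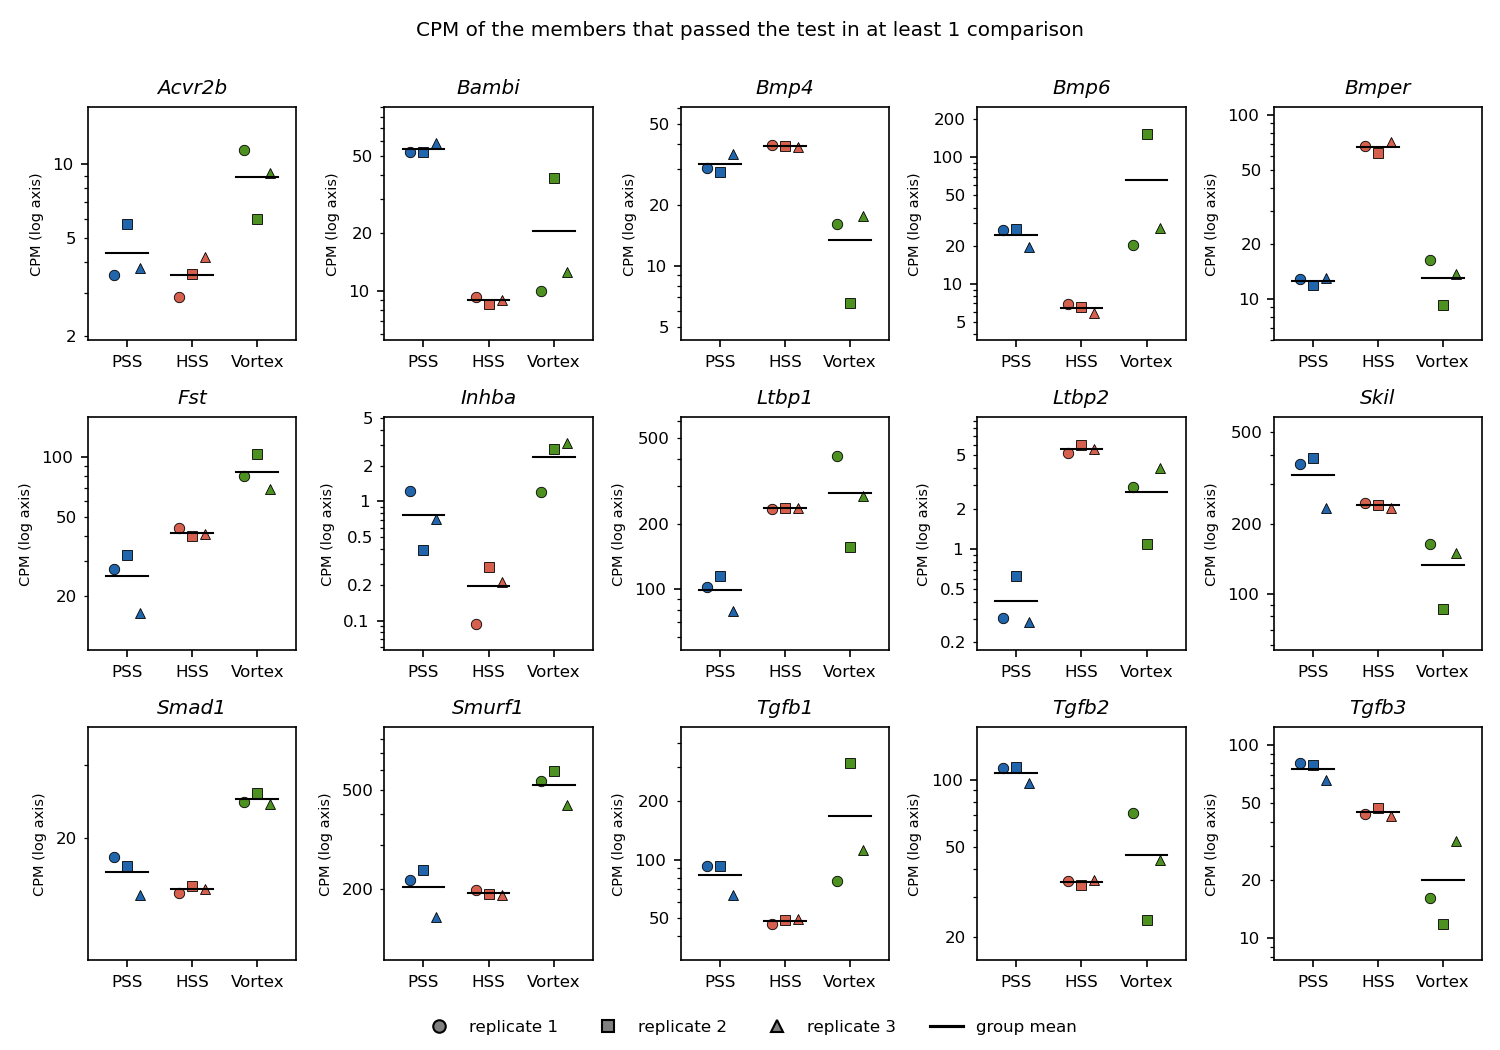
Points are CPM on log axes in each library for the 15 members called in at least 1 comparison, with replicates by symbol and the group mean as a bar. Bmper stood high in the 3 HSS libraries alone, Smurf1, Fst and Smad1 were highest in the 3 Vortex libraries, and Vortex replicate 2 lay apart from the other Vortex libraries in Bmp6, Tgfb1 and Bambi.

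The receptor genes with the highest levels per gene length in PSS were Eng at 91.7 ± 16.4 FPKM, Acvrl1 at 42.3 ± 7.44, and Tgfbr1, the type I TGF-beta receptor, at 38.1 ± 0.653. The SDs of Acvrl1 and Tgfbr1 overlap. The BMP type I receptor gene Bmpr1a was at 0.0680 ± 0.0295 FPKM, with 6 to 12 counts in PSS, 0 to 4 in HSS and 6 to 64 in Vortex. Acvr1, another BMP type I receptor gene, was at 8.51 ± 1.50 FPKM in PSS and at 32.5 to 53.5 CPM over all 9 libraries, and passed in no comparison.

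Bambi, a transmembrane decoy that lacks the kinase domain and dampens TGF-beta and BMP signals, fell in HSS. It was at 52.7, 52.6 and 58.6 CPM in PSS, 9.34, 8.52 and 9.00 in HSS, and 9.96, 38.7 and 12.5 in Vortex. No HSS or Vortex library reached the PSS range, and all HSS libraries were below all Vortex libraries. The log2 fold change in HSS was -2.61 ± 0.47 (adjusted p = 0.0125), and -2.61 ± 0.14 without Vortex replicate 2 (1.36e-06). In Vortex it was -1.42 ± 0.45 (adjusted p = 0.0663) and -2.28 ± 0.17 without Vortex replicate 2 (9.19e-06). The HSS call ended without PSS replicate 1 or 3 or any 1 HSS library (0.0508 to 0.0727).

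Acvr2b, a type II receptor for activins, was low and higher in Vortex than in HSS. It was at 3.54, 5.69 and 3.79 CPM in PSS, 2.88, 3.59 and 4.21 in HSS, and 11.4, 6.00 and 9.18 in Vortex, and no Vortex library overlapped either other group. The log2 fold change from HSS was 1.32 ± 0.33 (adjusted p = 0.0454) and 1.53 ± 0.27 without Vortex replicate 2 (0.00385). The call remained only without that library and ended without each of the other 8 (0.0586 to 0.199).

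Of the other receptors, 0 of 9 were called in any comparison by edgeR with all 9 libraries. Over all 11 receptor genes, 2, 2 and 4 had an unadjusted p under 0.05 in HSS against PSS, Vortex against PSS and Vortex against HSS. DESeq2 called 1, 2 and 3 receptor genes, and its counts over all genes are given at the end. Over all tested genes edgeR called 7.87%, 13.4% and 7.04%, and 23.4%, 29.8% and 26.9% had an unadjusted p under 0.05. Eng was at 366, 401 and 293 CPM in PSS, 241, 251 and 264 in HSS, and 139, 996 and 256 in Vortex. Acvrl1 was at 179, 194 and 143 CPM in PSS, 59.6, 59.5 and 68.9 in HSS, and 75.7, 828 and 128 in Vortex. Both genes were lower in all HSS than in all PSS libraries and highest in Vortex replicate 2, the library with the highest sum of endothelial markers.

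Without Vortex replicate 2, Acvrl1 was lower than PSS in HSS (-1.46 ± 0.20, adjusted p = 0.000423) and in Vortex (-0.75 ± 0.22, 0.0237). Eng changed sign in Vortex against PSS with that library left out, from 0.39 ± 0.58 (adjusted p = 0.7) to -0.84 ± 0.24 (0.0203). Tgfbr2, the type II TGF-beta receptor, was then also lower in both (-0.77 ± 0.18 in HSS and -0.64 ± 0.21 in Vortex, adjusted p = 0.0112 and 0.0363). Tgfbr3, the betaglycan co-receptor that presents TGF-beta2, was higher in both (1.25 ± 0.14 and 0.92 ± 0.15, adjusted p = 0.000138 and 0.00141). Tgfbr3 was at 195, 206 and 147 CPM in PSS, 423, 430 and 449 in HSS, and 374, 59.5 and 321 in Vortex, so that Vortex replicate 2 lay below all other libraries. Acvr2a and Bmpr2, type II receptors for activins and BMPs, were higher in HSS in the same fit (0.95 ± 0.17 and 0.50 ± 0.17, adjusted p = 0.0022 and 0.0469). Tgfbr1 was at 235 to 241 CPM in PSS, 200 to 216 in HSS, and 182, 18.1 and 173 in Vortex, and without Vortex replicate 2 it was lower in Vortex than in PSS (-0.42 ± 0.11, adjusted p = 0.0155).

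SMAD proteins carry the signal from the receptors or block it. In PSS Smad3, Smad4, Smad5 and Smad7 were at 21.1 to 23.7 FPKM, Smad6 at 10.2 ± 4.72, Smad2 at 9.64 ± 0.293 and Smad1 at 2.78 ± 0.362. Smad1, a receptor SMAD of the BMP arm, was the only one called, higher in Vortex than in HSS. It was at 18.0, 17.2 and 14.6 CPM in PSS, 14.8, 15.4 and 15.1 in HSS, and 24.5, 25.7 and 24.2 in Vortex. All Vortex libraries, replicate 2 among them, lay above all others. The log2 fold change from HSS was 0.72 ± 0.18 (adjusted p = 0.0426) and from PSS 0.58 ± 0.18 (0.0584), and without Vortex replicate 2 both passed (0.69 ± 0.15 and 0.55 ± 0.15, adjusted p = 0.01 and 0.017). The call against HSS ended without PSS replicate 1 or 2, any 1 HSS library or Vortex replicate 3 (0.0616 to 0.196).

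Smad5, the other BMP receptor SMAD of the list, was at 151, 153 and 150 CPM in PSS, 92.2, 98.7 and 90.5 in HSS, and 77.5, 141 and 106 in Vortex. All HSS and Vortex libraries were below PSS, with a log2 fold change of -0.69 ± 0.22 in HSS (adjusted p = 0.0929) and -0.48 ± 0.22 in Vortex (0.178). Both passed without Vortex replicate 2 (-0.69 ± 0.13 and -0.72 ± 0.15, adjusted p = 0.00344 and 0.0048). Smad3 was at 133, 144 and 98.8 CPM in PSS, 144, 144 and 148 in HSS, and 125, 219 and 175 in Vortex, and passed in no comparison with or without Vortex replicate 2. The same held for Smad2, at 57.0 to 82.5 CPM over all libraries, for Smad4, the common partner, at 68.0 to 101, and for Smad7, an inhibitor of both arms, at 57.6 to 149.

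Smad6, an inhibitor that acts mainly on the BMP arm, was at 35.9, 41.9 and 15.5 CPM in PSS, 29.9, 26.5 and 27.1 in HSS, and 5.80, 70.8 and 15.3 in Vortex. Its Vortex libraries spanned the range of both other groups. When Vortex replicate 2 was left out, its log2 fold change in Vortex was -1.55 ± 0.45 from PSS and -1.39 ± 0.45 from HSS (adjusted p = 0.0226 and 0.0481). Over the 7 SMAD genes, 0 were called between HSS and PSS or Vortex and PSS by edgeR with all libraries. In each comparison 1 had an unadjusted p under 0.05, and DESeq2 called 1. Of all tested genes, edgeR called 7.87% and 13.4%, and 23.4% and 29.8% had an unadjusted p under 0.05.

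ID proteins are helix-loop-helix factors without a DNA-binding region that block other factors of that class, and their genes are direct targets of BMP SMADs. Id1 and Id3 were the most abundant in PSS, at 213 ± 3.64 and 144 ± 28.0 FPKM, followed by Id2 at 17.7 ± 6.23 and Id4 at 0.692 ± 0.163. Id1 was at 228, 235 and 244 CPM in PSS, 244, 236 and 241 in HSS, and 113, 360 and 151 in Vortex. HSS overlapped PSS, while the Vortex libraries lay on both sides of the laminar groups.

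Id2 was at 50.7, 46.7 and 25.3 CPM in PSS, 20.6, 19.9 and 18.2 in HSS, and 6.87, 64.3 and 11.5 in Vortex. Id3 was at 255, 281 and 199 CPM in PSS, 182, 188 and 191 in HSS, and 79.7, 273 and 134 in Vortex. Id4 was at 61, 52 and 42 counts in PSS, 3 in each HSS library, and 7, 118 and 6 in Vortex. For Id2, Id3 and Id4 all HSS libraries lay below all PSS libraries, as they did for 26.3% of all tested genes. For all 4 ID genes Vortex replicates 1 and 3 lay below PSS and replicate 2 did not. The share of all genes with that order was not counted.

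With all libraries 0 of 4 ID genes were called in any comparison by edgeR. For HSS against PSS, Vortex against PSS and Vortex against HSS, 1, 0 and 1 had an unadjusted p under 0.05. Over all tested genes 7.87%, 13.4% and 7.04% were called by edgeR, and 23.4%, 29.8% and 26.9% had an unadjusted p under 0.05. DESeq2 called 1, 0 and 1 of the ID genes. All 4 were, without Vortex replicate 2, lower in Vortex than in PSS, by a log2 fold change of -0.84 ± 0.14 for Id1, -2.15 ± 0.32 for Id2, -1.20 ± 0.22 for Id3 and -2.78 ± 0.42 for Id4 (adjusted p = 0.00161, 0.000727, 0.00257 and 0.00081), where 16.6% of all genes were called lower. Id1, Id2 and Id3 were then also lower in Vortex than in HSS (-0.86 ± 0.14, -1.09 ± 0.31 and -0.81 ± 0.22, adjusted p = 0.00291, 0.0309 and 0.0254). In HSS against PSS, Id2 and Id4 passed in that fit (-1.06 ± 0.26 and -3.97 ± 0.40, adjusted p = 0.0128 and 6.36e-05), and Id1 did not (0.03 ± 0.13, 0.896).

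**Figure D3:**
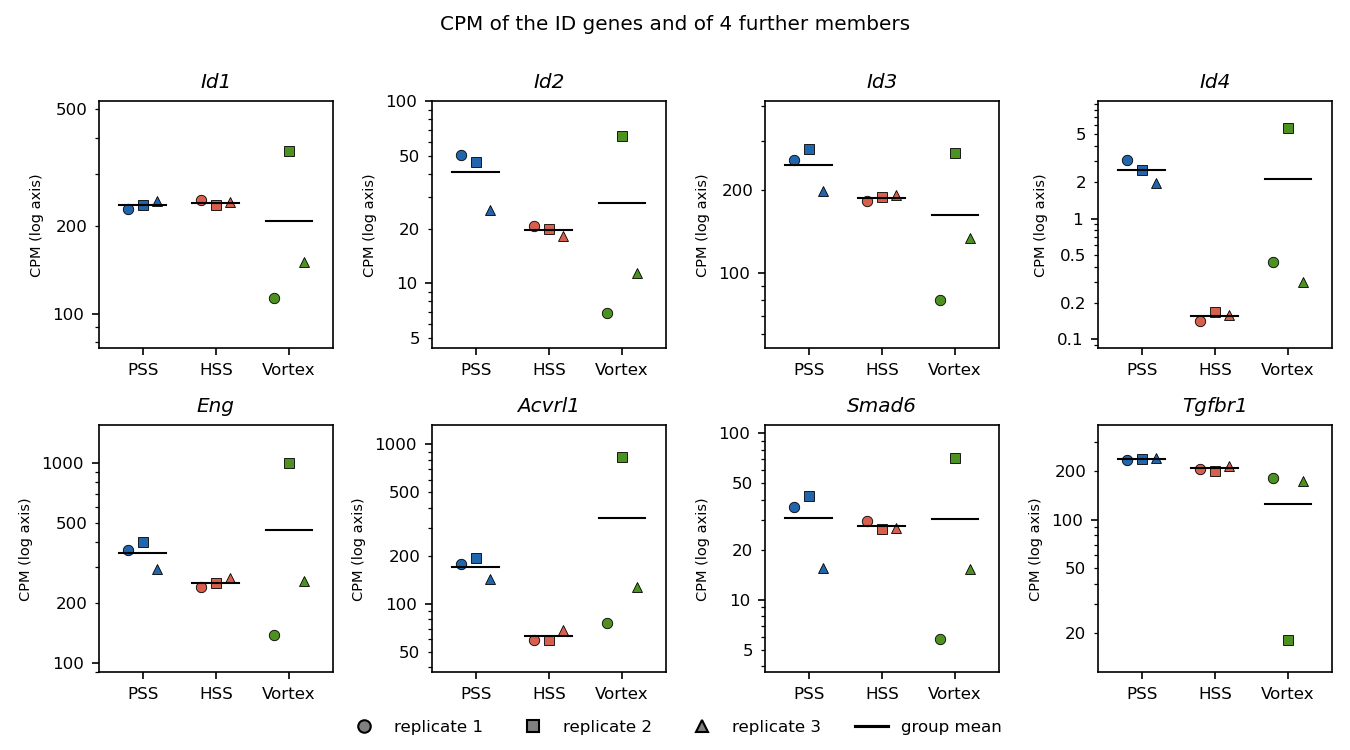
Points are CPM on log axes in each library for the 4 ID genes, Eng, Acvrl1, Smad6 and Tgfbr1, with replicates by symbol and the group mean as a bar. In the first 7 panels Vortex replicate 2 lies above Vortex replicates 1 and 3, and in the Tgfbr1 panel it lies below them, at 18.1 CPM against 182 and 173.

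Vortex replicate 2 departed from the other Vortex libraries in most members. Over the 40 tested members the median absolute difference of log2 CPM between it and the mean of replicates 1 and 3 was 1.37, against 0.84 over all tested genes with a GC value. The same measure was 1.02 for Vortex replicate 1, 0.42 for Vortex replicate 3, 0.04 to 0.06 for single HSS libraries and 0.16 to 0.41 for PSS libraries. The largest departures upward were those of Id4 (3.62), Acvrl1 (3.07) and Inhbb (2.90), and downward those of Tgfbr1 (-3.29), Acvr2a (-2.60) and Tgfbr3 (-2.54). Across genes, the departure had a Spearman correlation with transcript GC content of 0.32 over the 40 members and 0.43 over 15533 genes. Other libraries set against the rest of their group also had such correlations. Over all genes they were 0.12, 0.30 and -0.27 for PSS replicates 1, 2 and 3 and -0.36 and -0.33 for Vortex replicates 1 and 3. For HSS libraries they were -0.05 to 0.03. Over the members they were 0.47 for PSS replicate 2, -0.40 for Vortex replicate 1 and -0.24 to 0.05 for the others. The points of each correlation share 3 libraries, and the part of GC content in the member values was not tested.

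**Figure D4:**
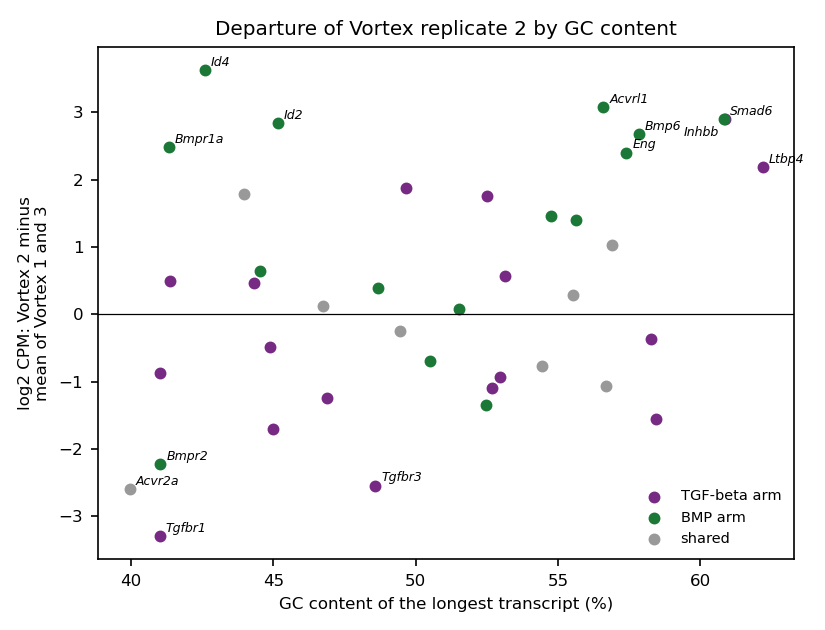
Each point is 1 tested member, with the GC content of its longest transcript in percent on the x axis and its log2 CPM in Vortex replicate 2 minus the mean of Vortex replicates 1 and 3 on the y axis, coloured by arm. Members with a low GC content lie both far below 0, as Tgfbr1 and Acvr2a, and far above it, as Id4 and Id2.

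Of 7 tested binder and matrix genes, 3 rose in HSS and 3 in Vortex, where 4.18% and 8.33% of all genes were called higher. Bmper, a secreted protein that binds BMPs and tunes their activity in endothelium, was at 12.8, 12.0 and 13.0 CPM in PSS, 67.6, 62.2 and 71.3 in HSS, and 16.3, 9.24 and 13.7 in Vortex. The HSS libraries stood above all 6 others, and Vortex overlapped PSS. Bmper rose by a log2 fold change of 2.41 ± 0.23 from PSS to HSS (adjusted p = 0.00139) and was lower in Vortex than in HSS (-2.36 ± 0.23, adjusted p = 0.00286). Both calls remained without each of the 9 libraries (adjusted p up to 0.0167 and 0.036). Vortex against PSS gave 0.05 ± 0.22 (adjusted p = 0.901).

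Latent TGF-beta binding proteins hold the inactive ligand in the matrix. Ltbp2, the member of that family that does not bind latent TGF-beta, had 6, 13 and 6 counts in PSS, 111, 106 and 106 in HSS, and 46, 23 and 82 in Vortex. All HSS and Vortex libraries were above PSS, at a low level of at most 5.94 CPM. Ltbp2 rose by a log2 fold change of 3.76 ± 0.54 in HSS (adjusted p = 0.00522) and 2.70 ± 0.53 in Vortex (0.0128). The HSS call remained without each of the 9 libraries (up to 0.0401), and the Vortex call ended without PSS replicate 1 or 3 (0.0709 and 0.0596). Leaving Vortex replicate 2 aside, they were 3.76 ± 0.34 and 3.08 ± 0.36 (adjusted p = 2.99e-05 and 0.000182).

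Ltbp1 encodes a protein that aids the secretion of latent TGF-beta1 and its anchoring in the matrix. Ltbp1 was at 103, 114 and 79.0 CPM in PSS, 235, 238 and 238 in HSS, and 412, 156 and 269 in Vortex. No PSS library reached the other groups. It rose by 1.26 ± 0.32 in HSS (adjusted p = 0.0441) and by 1.50 ± 0.32 in Vortex (0.0174), and by 1.26 ± 0.18 and 1.78 ± 0.20 without Vortex replicate 2 (0.000564 and 0.000123). The HSS call ended without each of the PSS and HSS libraries or Vortex replicate 3 (0.0641 to 0.163), and the Vortex call without PSS replicate 1, 2 or 3 (0.0757, 0.0515 and 0.0745). Ltbp3 was at 144 to 220 CPM in PSS, 249 to 259 in HSS and 205 to 275 in Vortex, and passed in Vortex against PSS without replicate 2 (0.51 ± 0.17, adjusted p = 0.0373). Ltbp4 went the other way in the laminar groups, at 29.2 to 48.9 CPM in PSS and 16.0 to 18.8 in HSS, with 18.5, 85.9 and 19.1 in Vortex, and without Vortex replicate 2 it was lower in HSS and Vortex (-1.17 ± 0.18 and -1.06 ± 0.21, adjusted p = 0.00111 and 0.00374).

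Fst encodes follistatin, which binds and neutralises activins. It was at 27.4, 32.2 and 16.5 CPM in PSS, 43.9, 40.1 and 41.1 in HSS, and 80.2, 103 and 69.0 in Vortex. The 3 groups did not overlap, with Vortex highest and HSS between. Fst rose by 1.73 ± 0.27 in Vortex (adjusted p = 0.00614), and that call remained without each of the 9 libraries (up to 0.0387). The difference in HSS was 0.72 ± 0.26 (adjusted p = 0.136) and that of Vortex from HSS 1.01 ± 0.26 (0.0514). The 3 differences without Vortex replicate 2 were 1.55 ± 0.23, 0.72 ± 0.21 and 0.84 ± 0.23 (adjusted p = 0.000736, 0.0288 and 0.0268).

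Bmp1 encodes a protease that processes procollagens and frees latent TGF-beta complexes, and is no BMP ligand. It was the binder and matrix gene with the highest mean level per length, at 40.7 ± 10.4 FPKM in PSS. It was at 364, 411 and 255 CPM in PSS, 519, 524 and 530 in HSS, and 535, 263 and 567 in Vortex. HSS lay above PSS, and Vortex replicate 2 lay within the PSS range. Bmp1 passed without Vortex replicate 2, higher than PSS in HSS and in Vortex (0.61 ± 0.16 and 0.68 ± 0.18, adjusted p = 0.0179 and 0.0141).

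Among the intracellular regulators, Smurf1 rose in Vortex. Smurf1 is a ubiquitin ligase that marks SMAD1, SMAD5 and receptors for degradation. It was at 217, 239 and 156 CPM in PSS, 199, 192 and 190 in HSS, and 544, 595 and 433 in Vortex. The Vortex libraries were above all others and the laminar groups overlapped. Smurf1 rose by a log2 fold change of 1.36 ± 0.21 from PSS (adjusted p = 0.00527) and 1.44 ± 0.21 from HSS (0.0102). Leaving out Vortex replicate 2 gave 1.26 ± 0.18 and 1.33 ± 0.18 (adjusted p = 0.000565 and 0.00106). The call against PSS remained without each of the 9 libraries (up to 0.0376), and that against HSS ended without HSS replicate 1, 2 or 3 (0.0819, 0.0786 and 0.0823). Its relative Smurf2 was at 88.6 to 117 CPM in PSS, 79.8 to 83.4 in HSS and 89.4 to 104 in Vortex, and passed in HSS against PSS without Vortex replicate 2 (-0.39 ± 0.13, adjusted p = 0.049).

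Skil encodes SnoN, a repressor of SMAD transcription that is itself a target of TGF-beta. It was at 363, 386 and 235 CPM in PSS, 248, 244 and 234 in HSS, and 165, 86.1 and 150 in Vortex. All Vortex libraries were below both laminar groups, which overlapped. Skil fell by 1.30 on the log2 scale in Vortex (SE 0.28, adjusted p = 0.0173), and by 1.06 without Vortex replicate 2 (SE 0.20, adjusted p = 0.00259). The call ended without PSS replicate 1 or 2 (0.0771 and 0.0665). Tgif1, another repressor of SMAD transcription, was at 61.2 to 93.2 CPM in PSS, 121 to 132 in HSS, and 206, 53.7 and 148 in Vortex, and without Vortex replicate 2 it was higher than PSS in HSS and in Vortex (0.65 ± 0.18 and 1.12 ± 0.20, adjusted p = 0.0215 and 0.00181).

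Set side by side, the TGF-beta arm had 17 tested members and the BMP arm 15. Between HSS and PSS, 2 members of the TGF-beta arm were higher and 1 lower, and 1 member of the BMP arm was higher and 0 lower. The medians of the log2 fold changes were -0.25 and -0.39, beside -0.0049 over all tested genes, of which 7.87% were called. In Vortex against PSS, 3 TGF-beta arm members were higher and 3 lower (median 0.40), and 0 BMP arm members were higher and 1 lower (median -0.02), beside 0.11 over all genes, of which 13.4% were called. In Vortex against HSS, 2 and 0 TGF-beta arm members were higher and lower (median 0.24), and 2 and 2 BMP arm members (median 0.21), beside 0.10 over all genes, of which 7.04% were called.

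Leaving out Vortex replicate 2, the arms had 12 and 7 called members in HSS against PSS, namely 5 higher and 7 lower in the TGF-beta arm and 2 higher and 5 lower in the BMP arm, where 29.1% of all genes were called. In Vortex against PSS 6 were higher and 7 lower in the TGF-beta arm (median 0.18), and 1 was higher and 9 lower in the BMP arm (median -0.75), beside 0.01 over all genes, of which 36.3% were called. The 1 BMP arm member that was higher was Smad1. The 9 that were lower were Bmp4, Acvrl1, Eng, Smad5, Smad6 and the 4 ID genes. In Vortex against HSS, 4 were higher and 2 lower in the TGF-beta arm (median 0.11) and 3 higher and 6 lower in the BMP arm (median -0.21), beside 0.03 over all genes, of which 23.9% were called. With Vortex replicate 2 included the BMP arm median in Vortex against PSS was near 0, so its value rests on that library. Eng, Acvrl1, Id1, Id2 and Id4 were highest, and the fibroblast marker sum lowest, in that library, while Id3 was at 273 CPM there and at 281 in PSS replicate 2. The difference between the arms was not tested.

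**Figure D5:**
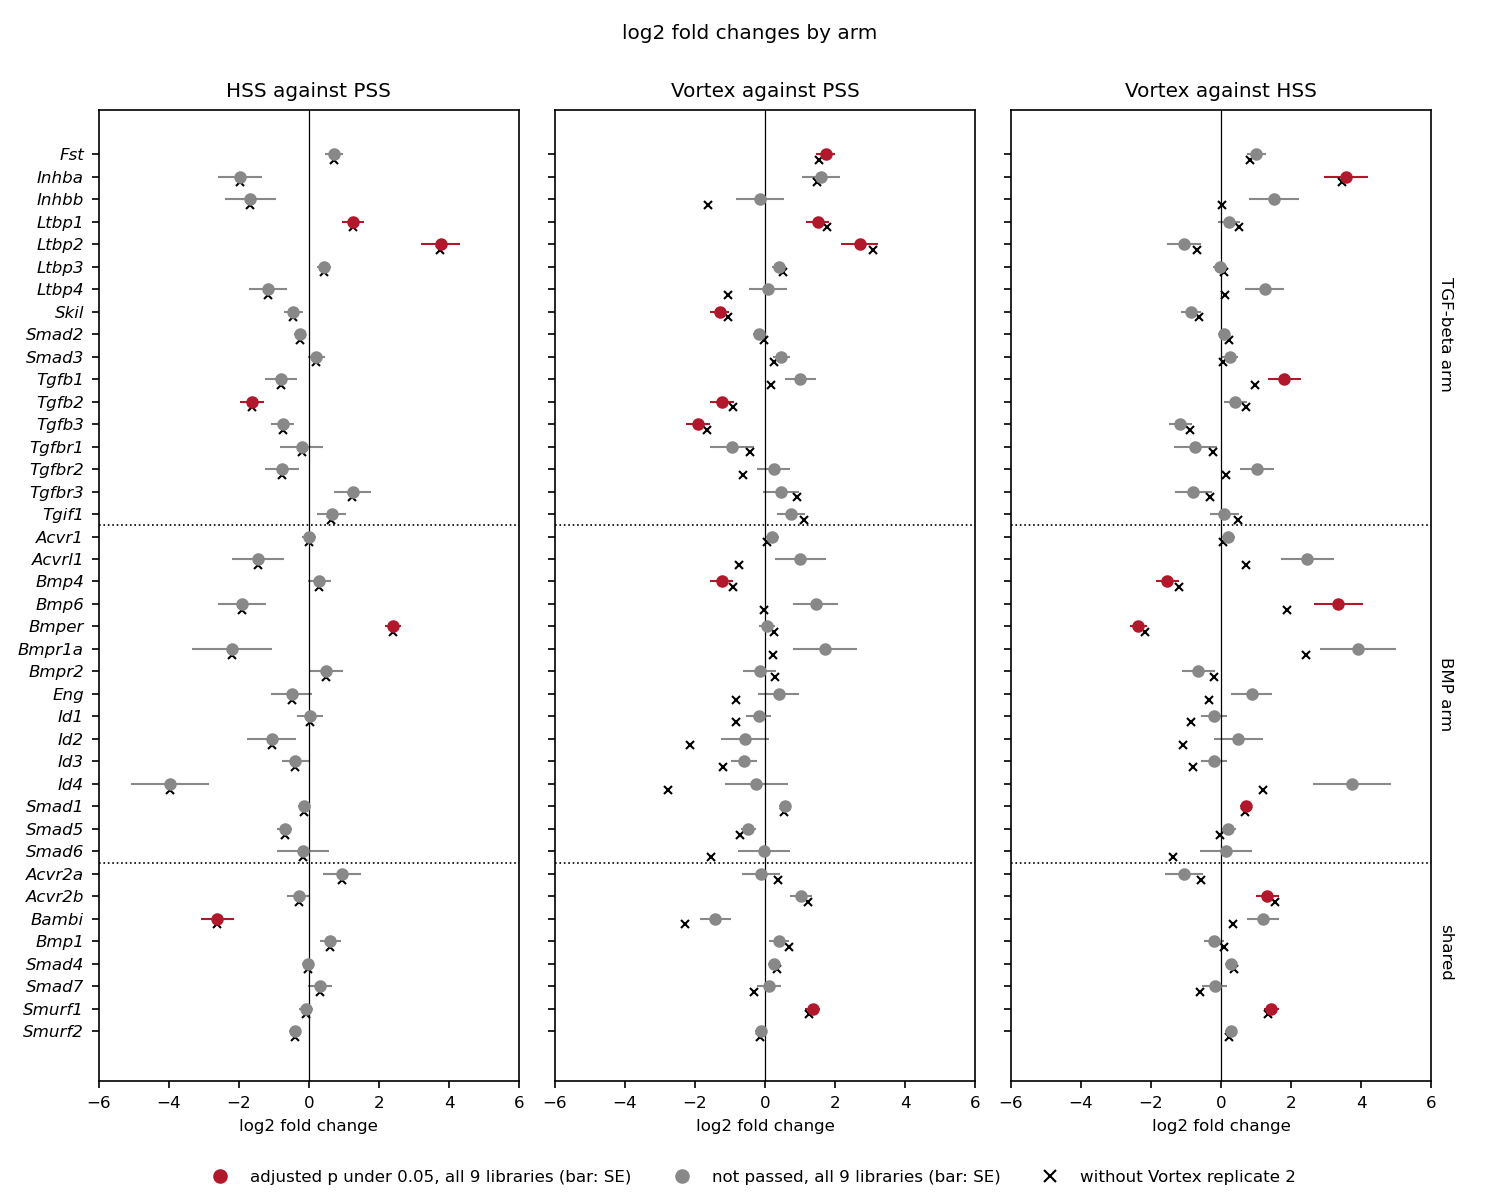
Points are log2 fold changes of the 40 tested members in the 3 comparisons, by arm, with SE bars and in red where the adjusted p was under 0.05 in the fit of all 9 libraries. Crosses give the fit without Vortex replicate 2, in which the BMP arm members of Vortex against PSS shift to the left for Eng, Acvrl1, Bmp6, Smad6 and the 4 ID genes.

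Other genes of the pathway came from a list of 65. Of these, 61 were in the table and 42 had enough counts to be tested. In HSS against PSS 4 rose and 1 fell, in Vortex against PSS 5 rose and 4 fell, and in Vortex against HSS 2 were higher and 3 lower. Over all tested genes 7.87%, 13.4% and 7.04% were called in these comparisons. Chrd, the BMP antagonist chordin, was at 5.41 to 6.23 CPM in PSS, 23.4 to 25.9 in HSS, and 21.3, 5.86 and 24.2 in Vortex. It rose by 2.11 ± 0.45 in HSS (adjusted p = 0.0233) and 1.58 ± 0.44 in Vortex (0.045). Acvr1b, the activin type I receptor, rose in HSS (0.75 ± 0.18, adjusted p = 0.0388) and in Vortex (0.69 ± 0.18, 0.0374). Gdf11, an activin-like ligand, rose in HSS (0.99 ± 0.21, 0.0255), and Gdf15, a stress-induced ligand of the wider family, in Vortex (1.87 ± 0.45, 0.0265). Gdf15 was at 26.7 to 51.4 CPM in PSS and at 219, 57.1 and 171 in Vortex replicates 1, 2 and 3.

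Tll1, a relative of the Bmp1 protease, was lower in Vortex than in PSS (-1.22 ± 0.20, adjusted p = 0.0072) and HSS (-1.16 ± 0.20, 0.0159). Fbn1, the fibrillin to which latent TGF-beta complexes attach, fell in Vortex (-1.58 ± 0.27, 0.00879). Nedd4l, a ubiquitin ligase for SMAD2 and SMAD3, rose in Vortex (2.38 ± 0.42, 0.00938), and Tob1, a repressor of BMP SMADs, in HSS (0.84 ± 0.16, 0.017). Tgif2 was lower in Vortex than in PSS and HSS (-1.74 ± 0.34 and -1.33 ± 0.34, adjusted p = 0.0127 and 0.0499). Bmpr1b, the remaining BMP type I receptor gene, was at 0 to 0.341 CPM in every library.

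Target genes outside the 42 were counted in the same way. Of 13 tested TGF-beta targets, 1 rose and 2 fell in HSS and 1 rose and 1 fell in Vortex, where 7.87% and 13.4% of all genes were called. Angptl4 rose (1.07 ± 0.24, adjusted p = 0.0296) and Snai2 and Ldlrad4 fell in HSS (-2.004 ± 0.52 and -2.001 ± 0.44, 0.0479 and 0.0267). Snai1, a repressor of epithelial genes, rose in Vortex (1.36 ± 0.27, 0.0126), where Ldlrad4, an inhibitor of TGF-beta receptor signalling, fell (-1.51 ± 0.43, 0.0479). In Vortex against HSS 0 of 13 were called by edgeR, with 5 at an unadjusted p under 0.05, and DESeq2 called 2. Of all tested genes edgeR called 7.04% there, and 26.9% had an unadjusted p under 0.05.

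Of 10 tested BMP targets, 0 rose and 3 fell in HSS, 0 rose and 1 fell in Vortex, and 1 was higher in Vortex than in HSS, where 3.7%, 5.03% and 4.37% of all genes were called in those directions. The called genes in HSS were Hey1, Hey2 and Tmem100, with log2 fold changes of -4.57 ± 1.16, -4.82 ± 0.77 and -3.94 ± 0.92 (adjusted p = 0.0452, 0.00766 and 0.0332). Hey1 and Hey2 are also targets of Notch signalling. Hey1 was at 12.4 to 14.6 CPM in PSS, 0.526 to 0.613 in HSS, and 0.883, 24.0 and 1.48 in Vortex. Hey2 fell in Vortex (-2.80 ± 0.64, 0.0224), and Stmn2 was higher in Vortex than in HSS (2.83 ± 0.67, 0.0385). Stmn2 was at 0.789 to 0.841 CPM in HSS and at 1.70, 12.0 and 3.60 in Vortex replicates 1, 2 and 3. Without Vortex replicate 2, 9 were tested and 5 were lower and 0 higher in HSS and in Vortex against PSS, where 13.7% and 16.6% of all genes were called lower, among them Hey1, Hey2, Tmem100 and Gja4 in both.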

How the data were processed

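Polyadenylated RNA of 9 bEnd.3 libraries was sequenced, 3 for each flow condition. The authors deposited whole-number counts per gene and FPKM values, with HISAT2, HTSeq 0.13.5 and build GRCm39 named in the submitters' processing notes. Whether counting used strand is not stated in the sources used here, so reads of a gene and of an overlapping antisense gene cannot be told apart. In 100% of genes the deposited FPKM equalled count over gene length and column total, to a relative tolerance of 1e-06. All sample columns of the table were used.

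Counts were fitted in R 4.3.3 with edgeR 4.0.16 (filterByExpr, TMM, robust quasi-likelihood, 1 mean per group), which kept 15774 genes at a biological coefficient of variation of 0.35. SE is the log2 fold change over the square root of F. CPM uses TMM-scaled totals, with a prior count of 2 for log2 CPM. Alternatives were DESeq2 1.42.0 (size factors, Wald test), no filter, the replicate block, the 6 compared libraries, and each library left out. The procedure was tested on simulated data. Members, arms and lists were chosen with earlier results of these data known. Members called in any comparison, and that with the highest mean FPKM of each role, are described in full; others were chosen after their values were seen. GC content comes from GENCODE M21 transcripts and promoters from RefSeq (GRCm38.p6), matched by identifier or symbol.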

Additional observations from a re-analysis of the deposited data

How the results depend on the processing

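Of the 21 calls of members over the 3 comparisons, all 21 kept direction and call with DESeq2 size factors, with the DESeq2 Wald test and without Vortex replicate 2. Fewer calls remained elsewhere, 17 without a filter, 13 with the replicate block and 7 in fits of the 6 compared libraries. Without PSS replicate 1, 2 or 3, 8, 10 and 12 remained, and 9 without any 1 HSS library. Without Vortex replicate 1 or 3, 20 and 16 remained. The count of called members in HSS against PSS (5) was 9 by DESeq2, 25 in a fit of only those 6 libraries and 2 to 23 with 1 library left out. In Vortex against PSS (8) it was 0 in the fit of 6 libraries and 3 to 27 with 1 left out. In Vortex against HSS (8) it was 4 without a filter, 2 with the replicate block, 14 by DESeq2, 2 in the fit of 6 libraries and 1 to 17 with 1 left out. The cause was not tested. Over all genes, the counts of 1242, 2107 and 1111 were 6233, 74 and 66 in fits of 6 libraries, 2456, 3489 and 2700 by DESeq2, and 772, 1258 and 357 with the block. Without a filter they were 908, 1413 and 713, and with 1 library left out 285 to 4730, 519 to 5888 and 25 to 3887.

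Deviations from the group means of same-numbered libraries correlated at -0.12 to 0.12 over 9 pairs, and the best match was the own number in 9 of 18 cases. With 3 libraries a group and Vortex replicate 2 apart, these values cannot tell whether the replicate numbers pair the samples. With the replicate block, 8 of the 21 calls were not made and the counts of called members were 4, 7 and 2.

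Some small differences changed sign. Without a filter Id1 in HSS against PSS was at -0.0055 and Bmper in Vortex against PSS at -0.017, and in the fit of 6 libraries Id1 was at -0.000365. With 1 library left out, the log2 fold changes from PSS ranged from -0.24 to 0.050 for Smurf1 in HSS, and in Vortex from -0.033 to 1.82 for Bmp6, -0.17 to 0.25 for Bmper, -0.84 to 0.77 for Eng and -0.84 to 0.060 for Id1. Those of Vortex from HSS ranged from -0.39 to 0.071 for Bmp1, -0.35 to 1.28 for Eng, -0.86 to 0.059 for Id1, -0.17 to 0.52 for Ltbp1 and -0.058 to 0.72 for Tgfb2. Counts under about 10 in a library, as for Inhba, Id4, Ltbp2 and Bmpr1a in at least 1 group, limit the precision of those genes.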
